A study of Homo sapiens with 9 samples.

Results

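The GIMAP genes (GTPases of immunity-associated proteins) form a cluster on human chromosome 7, and 7 of them were named for this description: GIMAP1, GIMAP2, GIMAP4, GIMAP5, GIMAP6, GIMAP7 and GIMAP8. They were chosen by family, because members had low normalized counts in drug-resistant HL-60 cells in this same table. Their differences between the groups are therefore given as a description, and their calls in the fit are not read as a test. Of the 20637 genes of the table, 4 were these members, GIMAP2, GIMAP4, GIMAP6 and GIMAP8, while GIMAP1, GIMAP5 and GIMAP7 are not analysed here. GIMAP2, GIMAP4 and GIMAP6 passed the filter on low values (10 or more in 3 or more of the 9 libraries) and so were among the 12569 genes fitted, and GIMAP8 did not. The working name of the set, loss with resistance, describes the same values that the members were chosen on, so it is not a finding. GIMAP4 and GIMAP6 were lower in both resistant lines, though still read in the cytarabine-resistant line. GIMAP2 was near its parental level in the cytarabine-resistant line.

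HL-60 is an established line of human acute myeloid leukaemia with promyelocyte character. HRA cells are HL-60 cells resistant to cytarabine (Ara-C), a nucleoside analogue that stops DNA synthesis, and were grown with 100 nM of it. HRD cells are HL-60 cells grown with 30 nM daunorubicin (DNR), to which they are resistant, and DNR is an anthracycline that poisons topoisomerase II. Parental cells are the HL-60 line that the labels call neither resistant nor kept in a drug, and polyadenylated RNA was sequenced from 3 biological replicates of each of the 3 groups. The labels name 1 HRA line and 1 HRD line, so a p-value below measures the spread between cultures of those lines, and resistance, the presence of the drug and the history of each line cannot be told apart. In bulk RNA, fewer cells that express a gene and less of its RNA per cell cannot be told apart either.

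GIMAP proteins bind guanine nucleotides through a domain shared with the AIG1 protein of plants, and some of them are anchored in membranes by a hydrophobic tail. They are best known from lymphocytes, where loss of GIMAP5 in rats and mice depletes T cells. GIMAP2 sits on the surface of lipid droplets and forms a GTP-dependent scaffold there, GIMAP6 binds GABARAPL2, a ubiquitin-like protein of the autophagosome membrane, and several members have been tied to proteins of the BCL2 family, which set the threshold for apoptosis. Their transcripts are found mainly in blood cells and endothelium.

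The starts of the genes are shown because GIMAP4 and GIMAP6 moved together and GIMAP2 moved less. The sequences are the 250 bases before the RefSeq start of each gene in assembly GRCh38.p14, 5′ to 3′ on the gene's strand. Capitals mark GGAAGT or its reverse complement ACTTCC, a string that many ETS transcription factors recognise. The read counts were made on hg19, and no coordinate is carried over between the assemblies. The windows were chr7:150567140-150567389 on the + strand for GIMAP4, chr7:150632386-150632635 on the - strand for GIMAP6 and chr7:150685456-150685705 on the + strand for GIMAP2.
GIMAP4: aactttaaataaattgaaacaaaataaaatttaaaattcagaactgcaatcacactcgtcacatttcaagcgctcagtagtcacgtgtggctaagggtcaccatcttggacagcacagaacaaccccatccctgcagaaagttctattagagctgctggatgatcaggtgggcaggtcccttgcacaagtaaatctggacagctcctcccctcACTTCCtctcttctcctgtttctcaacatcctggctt
GIMAP6: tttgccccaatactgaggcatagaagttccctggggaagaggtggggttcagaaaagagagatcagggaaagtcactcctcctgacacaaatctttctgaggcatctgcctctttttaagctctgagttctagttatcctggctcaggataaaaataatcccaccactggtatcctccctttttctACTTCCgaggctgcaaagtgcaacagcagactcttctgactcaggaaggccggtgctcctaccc
GIMAP2: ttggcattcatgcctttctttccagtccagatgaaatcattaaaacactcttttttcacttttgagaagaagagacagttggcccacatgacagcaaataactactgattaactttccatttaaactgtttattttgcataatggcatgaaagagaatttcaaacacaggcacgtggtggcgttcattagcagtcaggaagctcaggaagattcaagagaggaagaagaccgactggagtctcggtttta
GGAAGT or its reverse complement began at position -37 in GIMAP4 and at -64 in GIMAP6, counted back from the start, and was not found in the window of GIMAP2. The GIMAP2 window does hold the shorter string GGAAG, so this contrast depends on the string chosen. Over the 7 named genes GGAAGT was found in 4, with GIMAP5 holding it at -190 and -64 and GIMAP8 at -44, and not in GIMAP1 or GIMAP7. Of all 34943 promoter windows of this length, 19.5% held it on either strand. The motif CACGTG, the E-box of MYC and its relatives, was found at -169 in GIMAP4 and at -80 in GIMAP2, and 6.32% of all windows held it. TGTGGT, a core of RUNX sites, was found in 0 of the 7 windows, against 10.99% of all windows. Likewise GATAAG, which erythroid GATA factors bind, was found in 0 of 7, against 5.65%. Both strands were read, and none of these motifs contains another. The 7 windows were poor in CpG, with 2 to 6 CpG each against a median of 11 over all windows, and their GC content was 39.6% to 49.2% against a median of 58%. These motifs were picked with the sequences in view, and a match in a window is a string of letters and not a bound site.

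The libraries held 20822709 to 66563328 reads in genes. Values are normalized counts, which are read counts divided by the size factor of the library, and 3 reads came to between 1.49 and 4.52 of them. With limma on log2(value + 1) and a Benjamini-Hochberg adjusted p below 0.05, HRA cells had 1148 genes above and 767 below parental cells (15.2% of those fitted), HRD cells had 1350 above and 1513 below parental cells (22.8%), and HRD cells had 1749 above and 2038 below HRA cells (30.1%). Blocking on the replicate number gave 1572 higher and 1202 lower for HRA against parental cells. The first and second comparison share the parental libraries, so their values are set side by side and their likeness is not read.

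GIMAP6 was nearly absent from HRD cells and low in HRA cells. Its normalized counts were 17.5, 23.0 and 19.5 in HRA replicates 1 to 3, 0.496, 1.51 and 4.27 in HRD replicates, and 125, 130.1 and 229 in parental replicates. The 3 groups did not overlap, with every HRD library lowest and every parental library highest. Of all fitted genes 18.7% were lower without overlap in HRA than in parental cells, 18.2% in HRD than in parental cells and 24.2% in HRD than in HRA cells, and nothing is read from this, since GIMAP6 was chosen on such differences. HRA cells averaged 20.0 ± 2.81, HRD cells 2.09 ± 1.96 and parental cells 162 ± 58.8 (SD, n = 3 each), so HRA cells held 12.4% and HRD cells 1.296% of the parental mean. The reads behind these means were 58 in HRA, 6 in HRD and 482 in parental libraries. Scaled for depth, the parental libraries held 7.62 times the reads of the HRA libraries (95% exact counting interval 5.79 to 10.2) and 89.0 times those of the HRD libraries (40.6 to 244). Such intervals cover counting error only, and not the spread between cultures. On the log2(value + 1) scale GIMAP6 differed by -2.90 ± 0.44 (SE) in HRA against parental cells, by -5.85 ± 0.44 in HRD against parental cells and by -2.95 ± 0.44 in HRD against HRA cells.

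GIMAP4, a GTPase that in mice speeds the death of T lymphocytes, followed the same order at a lower depth. It was at 5.58, 9.47 and 10.97 normalized counts in HRA replicates 1 to 3, at 0, 0 and 1.07 in HRD replicates, and at 81.4, 42.9 and 115 in parental replicates. Again no library of one group reached into another. The means were 8.67 ± 2.78 in HRA, 0.356 ± 0.617 in HRD and 79.9 ± 36.3 in parental cells (SD, n = 3 each), which is 10.9% of the parental mean in HRA cells and 0.446% in HRD cells. HRA libraries held 24 reads, HRD libraries 1 read and parental libraries 257 reads. The ratio of parental over HRA reads was 9.82 (95% exact counting interval 6.45 to 15.6), and that of parental over HRD reads was 285 (50.6 to 11286). With 1 read behind the HRD value, that ratio has an upper end far beyond what the libraries can resolve. The fitted differences were -3.00 ± 0.49 (SE) in HRA against parental, -5.88 ± 0.49 in HRD against parental and -2.88 ± 0.49 in HRD against HRA cells, and those of HRD cells depend on the pseudocount of 1, with -6.67 at a pseudocount of 0.5 and -3.89 at 5 for HRD against parental cells.

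GIMAP2 was near its parental level in HRA cells and lower in HRD cells. Its normalized counts were 218, 179.9 and 241 in HRA replicates 1 to 3, 122, 129.5 and 114 in HRD replicates and 152, 189 and 259 in parental replicates. HRA and parental libraries overlapped, while every HRD library lay below all others. The mean was 213 ± 30.9 in HRA, 122 ± 7.60 in HRD and 200.1 ± 54.5 in parental cells (SD, n = 3 each), or 106% of the parental mean in HRA cells and 60.9% in HRD cells. The difference on the log2(value + 1) scale was 0.11 ± 0.20 (SE) in HRA against parental, -0.68 ± 0.20 in HRD against parental and -0.79 ± 0.20 in HRD against HRA cells.

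GIMAP8, the largest of the family with repeated GTPase domains, was barely read in any group. HRA and HRD libraries held 0 reads, and parental replicates 1 to 3 held 3, 0 and 2 reads, or 1.68, 0 and 3.00 normalized counts. Scaled for depth, the parental reads were 1.53 times a floor of 3 reads in HRA libraries and 1.85 times that in HRD libraries. The parental reads carry counting error too, and parental replicate 2 held 0, so these ratios are not lower bounds. At this depth no more can be said of GIMAP8.

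**Figure D1:**
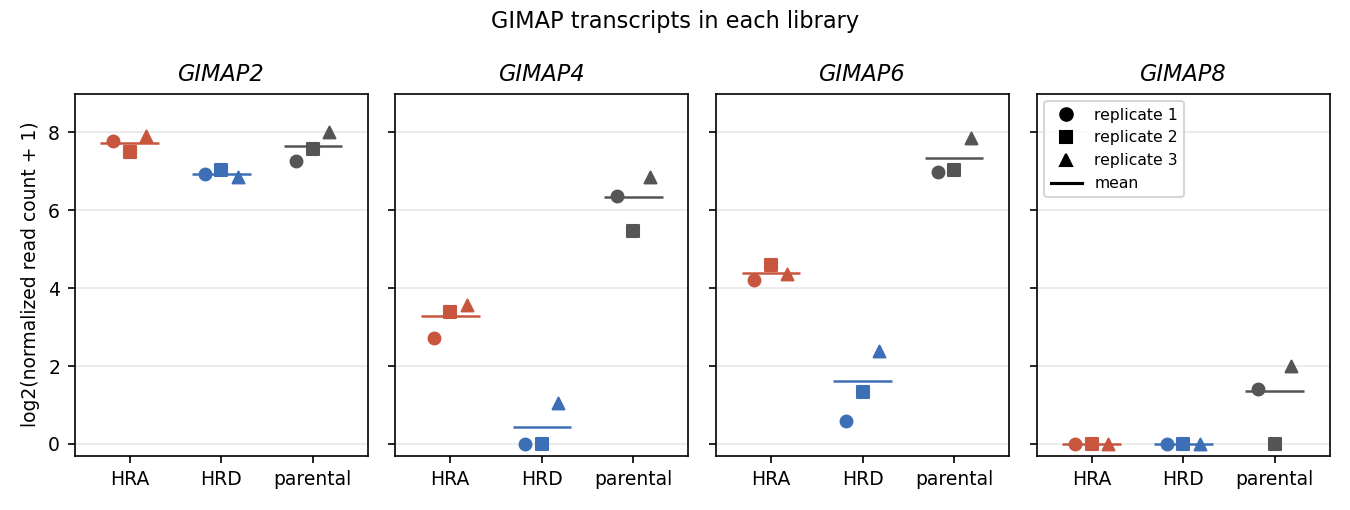
Levels of the 4 GIMAP genes analysed, as log2(normalized count + 1), 1 point per library, with HRA, HRD and parental groups from left to right. The horizontal bar is the mean normalized count of a group on the same scale, and symbols mark the replicate. GIMAP4 and GIMAP6 form 3 separate steps, with HRD lowest, GIMAP2 separates HRD only, and GIMAP8 has points above 0 in parental cells only.

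Among the 3 fitted members 2 were called lower in HRA than in parental cells, beside 6.1% of all fitted genes, and 3 were called lower in HRD than in parental cells, beside 12%. In HRD against HRA cells 3 were called lower, beside 16.2%. GIMAP2 left the HRD against parental count when HRA cells were not fitted, and without HRA replicate 1, any 1 HRD replicate or parental replicate 2 or 3, and it left the HRD against HRA count without HRA replicate 3. The members were chosen for these differences, and GIMAP4 would not have passed the filter without its parental libraries, so nothing is read from the counts. Among the 12569 fitted genes ordered from the most lowered, GIMAP4 stood at place 11 and GIMAP6 at place 14 in HRA cells, while GIMAP2 stood at place 8055. In HRD against parental cells the places were 19 for GIMAP4, 21 for GIMAP6 and 787 for GIMAP2. The median difference over all fitted genes was -0.01 in HRA and 0.01 in HRD against parental cells.

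Per kilobase of exon, GIMAP2 was the most abundant member in every group. Its level was 102 ± 14.8 normalized counts per kb in HRA, 58.1 ± 3.63 in HRD and 95.4 ± 26.0 in parental cells (SD, n = 3 each). GIMAP6 had 5.11 ± 0.717, 0.535 ± 0.4999 and 41.3 ± 15.02 per kb in HRA, HRD and parental cells, and GIMAP4 had 3.95 ± 1.27, 0.162 ± 0.281 and 36.4 ± 16.5 per kb. The ranges of GIMAP6 and GIMAP4 overlapped in each group, so their order could not be told, and GIMAP8 came last with 0.373 ± 0.359 per kb in parental cells and 0 elsewhere. The ratio of GIMAP6 to GIMAP4 normalized counts was 3.13, 2.43 and 1.78 in HRA replicates and 1.54, 3.03 and 1.99 in parental replicates, and these ranges overlapped. In the HRD libraries the ratio rested on 7 reads and is not interpreted.

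Summed over the 4 genes, the family came to 241, 212 and 272 normalized counts in HRA replicates, 122, 131 and 119.7 in HRD replicates and 360.3, 362 and 607 in parental replicates. The log2 ratio of the mean sums was -0.87 for HRA over parental, -1.83 for HRD over parental and -0.96 for HRD over HRA cells. GIMAP2 supplied 84.7% to 90.4% of the sum in HRA libraries, 95.5% to 99.6% in HRD libraries and 42.2% to 52.2% in parental libraries. Without it the mean sums were 28.7 ± 4.97 in HRA, 2.45 ± 2.56 in HRD and 243 ± 92.4 in parental cells, and the log2 ratios became -3.08, -6.63 and -3.55. In parental cells about as many of the summed counts came from GIMAP4 and GIMAP6 as from GIMAP2, and in HRD cells nearly all came from GIMAP2.

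The genes next to the cluster were read to see how far the low levels reached along chromosome 7. Of the 15 protein-coding genes on either side in RefSeq order, 25 of 30 were analysed and 18 fitted. None of the 18 was called lower in HRA or HRD than in parental cells, which does not cover the genes not fitted. Of those, ZNF467 and RARRES2 averaged 2.32 and 0.82 normalized counts in parental cells and 0 in both resistant lines. Others differed, such as ACTR3C at 0.19 in parental, 1.71 in HRA and 1.38 in HRD cells. These values are too near 0 to be read. In HRA cells 4 of 18 were higher and 0 lower, beside 9.13% of all fitted genes higher and 6.1% lower, with 9 higher and 0 lower at an unadjusted p below 0.05, 4 and 0 by edgeR, 6 and 0 by DESeq2, and 5 and 0 in the blocked fit. The median difference of these neighbours was 0.34, and 17 of 18 estimates were above 0. In HRD cells 1 of 18 was higher and 0 were lower, beside 10.7% higher and 12% lower, with 2 and 0 at an unadjusted p below 0.05, 1 and 0 by edgeR and 0 and 0 by DESeq2, and the median was -0.01, with 8 of 18 estimates above 0. In HRD against HRA cells 0 were higher and 4 lower, beside 13.9% and 16.2%, with 0 and 9 at an unadjusted p below 0.05, 0 and 4 by edgeR and 0 and 5 by DESeq2. Those 4 were ZNF212 (-0.47, adjusted p = 0.00572), ZNF777 (-0.48, adjusted p = 0.0118), ATP6V0E2 (-1.38, adjusted p = 0.0119) and ZNF783 (-0.50, adjusted p = 0.0294, lost without HRA replicate 1 or 3 or HRD replicate 2). ZNF212 had 455, 443 and 453 normalized counts in HRD, below its 547, 526 and 486 in parental replicates with no overlap, but without a call against them (-0.20, adjusted p = 0.175).

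The 4 neighbours higher in HRA cells were ZNF777, ATP6V0E2, SLC4A2 and AGAP3. ZNF777, a zinc finger gene, had 345.5, 367 and 336 normalized counts in HRA replicates, 249.8 ± 6.86 in HRD cells (SD, n = 3), and 243, 256 and 216 in parental replicates, and rose by 0.55 ± 0.12 in HRA against parental cells (adjusted p = 0.0113). The HRA libraries all lay above the parental ones. ATP6V0E2, a subunit of the proton pump of lysosomes, averaged 190.5 ± 28.4 in HRA and 86.0 ± 39.8 in parental cells and rose by 1.26 ± 0.34 (adjusted p = 0.031), and SLC4A2, an anion exchanger, averaged 1784 ± 132 in HRA and 1159.7 ± 219 in parental cells (adjusted p = 0.0249). AGAP3, a GTPase-activating protein, averaged 1306 ± 21.8 in HRA and 947 ± 147 in parental cells (adjusted p = 0.0329). The count of 4 was 0 without HRA replicate 2, 1 without HRA replicate 1 or parental replicate 3, and 2 without HRA replicate 3 or parental replicate 2, and the ZNF777 call was lost only in the first of these fits. Over the whole of chromosome 7 the median difference in HRA against parental cells was 0.27 over 506 fitted genes, with 125 higher and 4 lower, and it was 0.02 in HRD against parental cells. In HRD against HRA cells the median over the chromosome was -0.23, with 19 higher and 156 lower.

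The gene higher in HRD cells was ZNF862, a zinc finger gene with 63.4 ± 13.5 normalized counts in HRD and 36.6 ± 3.16 in parental cells (SD, n = 3 each, difference 0.76 ± 0.23, adjusted p = 0.0335). ZNF862 missed the threshold in DESeq2, with no filter, in a fit of the compared groups alone, and without HRA replicate 1, HRD replicate 2 or 3 or any parental replicate. The fitted genes nearest the cluster gave no call against parental cells, with LOC728743 at 0.35 in HRA (adjusted p = 0.379) and -0.25 in HRD (adjusted p = 0.525), and ZNF775 at 0.08 (adjusted p = 0.845) and -0.04 (adjusted p = 0.924). On the other side TMEM176B, TMEM176A, AOC1 and KCNH2 lie nearer the cluster but were not fitted. Beyond them NOS3, the nitric oxide synthase of endothelium, was at -0.01 in HRA (adjusted p = 0.984) and -0.13 in HRD (adjusted p = 0.864). NOS3 lies opposite ATG9B in the genome, and with no strand setting recorded for the counting, their reads may be mixed. A p-value that misses the threshold does not show that these genes were at the parental level.

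**Figure D2:**
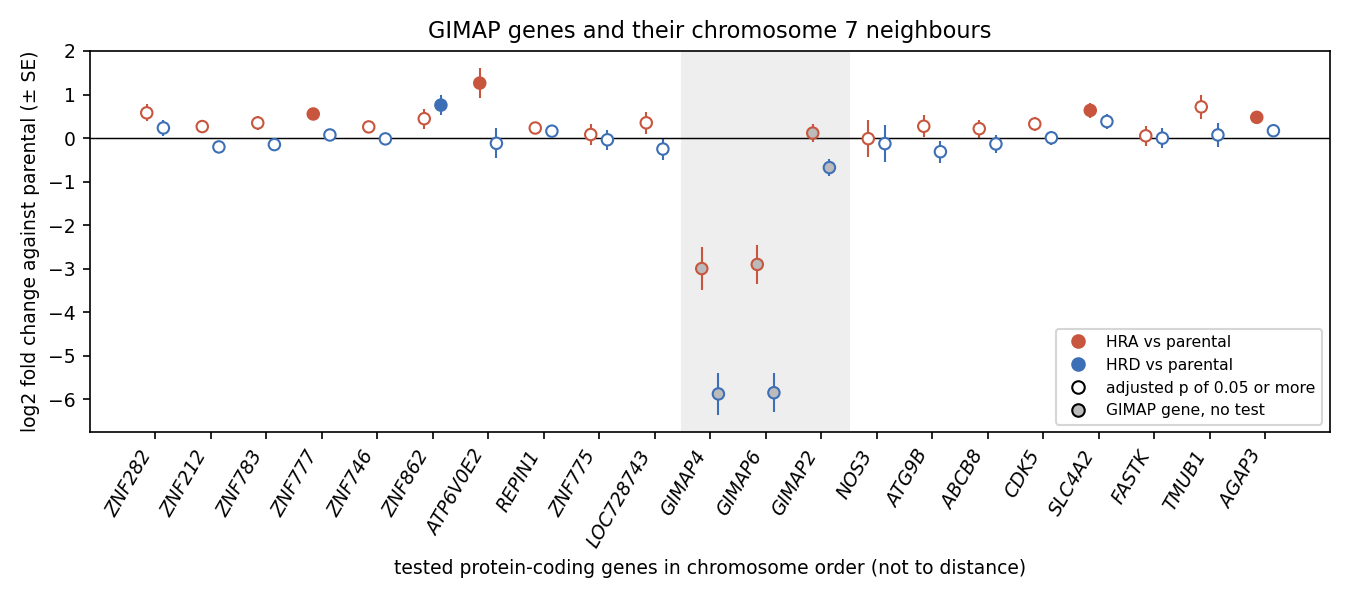
Difference from parental cells, as log2(value + 1) with its standard error, of the fitted protein-coding genes along chromosome 7 in RefSeq order, with HRA in red and HRD in blue, filled where the adjusted threshold was passed, and with the GIMAP genes on a shaded band with no call drawn. GIMAP4 and GIMAP6, of a family chosen for low values, lie far below 0. The fitted neighbours lie between -0.01 and 1.26 in HRA and between -0.31 and 0.76 in HRD cells.

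Partners of the family in autophagy and apoptosis were read as a list of 25 genes, of which 23 were fitted. In HRD cells 6 were higher and 2 lower than in parental cells, beside 10.7% and 12% of all fitted genes, with a list median of 0.16. In HRA cells 2 were higher and 1 lower than in parental cells, beside 9.13% and 6.1%, with a median of 0.05. In HRD against HRA cells 9 were higher and 3 lower, beside 13.9% and 16.2%, with a median of 0.12. The 4 largest HRD differences from parental cells were those of BECN1, MAP1LC3B, SQSTM1 and GABARAPL1, all genes of autophagy, with BECN1 lower and the other three higher.

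MAP1LC3B, which encodes the LC3 protein conjugated to growing autophagosomes, had 891, 929 and 721 normalized counts in HRA replicates, 1188, 1503 and 1231 in HRD replicates and 577, 717 and 703 in parental replicates. Every HRD library lay above every other, and the difference from parental cells was 0.97 ± 0.13 in HRD (adjusted p = 4.62e-04) and 0.35 in HRA (adjusted p = 0.104). SQSTM1, the cargo receptor p62, had 909, 1097 and 1048 in HRA, 1604, 1878 and 1635 in HRD and 962, 958 and 728 in parental replicates, and rose by 0.96 ± 0.13 in HRD (adjusted p = 3.25e-04). GABARAPL1, of the same ubiquitin-like family as the partner of GIMAP6, had 437, 593 and 366 in HRA, 704, 728 and 642 in HRD and 313, 379 and 418 in parental replicates, and rose by 0.91 ± 0.17 in HRD (adjusted p = 0.00327). BECN1, a subunit of the lipid kinase that starts autophagosomes, moved the other way, with 2326, 2233 and 2303 in HRA, 1390.1, 1536 and 1276 in HRD and 2881, 2761 and 2624 in parental replicates. Its difference was -0.98 ± 0.08 in HRD (adjusted p = 1.61e-05) and -0.27 in HRA. The HRA difference passed in the blocked fit (adjusted p = 0.0372) and in another alternative, and not in the main limma fit (adjusted p = 0.0538). BECN1 lies on chromosome 17, where 222 of 665 fitted genes were lower in HRD than in parental cells, beside 12% of all fitted genes. The median difference on that chromosome was -0.19, and whether its place there has a part in the level of BECN1 was not tested.

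GABARAPL2, the GIMAP6 partner itself, was named for its role and not by size of change. It averaged 974.8 ± 87.5 in HRA, 1246 ± 57.8 in HRD and 1112 ± 50.7 in parental cells (SD, n = 3 each), with no call against parental cells (-0.19, adjusted p = 0.176 in HRA, and 0.16, adjusted p = 0.23 in HRD) and a difference of 0.36 in HRD against HRA cells (adjusted p = 0.0136), which missed the threshold without HRA replicate 3. BCL2, the antiapoptotic founder of its family, averaged 7893 ± 759 in HRA, 6915 ± 888 in HRD and 7158 ± 482 in parental cells, and BAX, a proapoptotic member, was at 0.27 in HRA (adjusted p = 0.184) and 0.00 in HRD (adjusted p = 0.996). BCL2L1, the antiapoptotic BCL-XL, was called lower in HRD than in parental cells (-0.42, adjusted p = 0.0236), which was lost in a fit of the compared groups alone and without HRD replicate 1 or 3 or parental replicate 1 or 2. MCL1, another antiapoptotic member, was called higher in HRD (0.31, adjusted p = 0.024), lost in a fit of the compared groups alone and without HRD replicate 1 or 2 or parental replicate 1 or 2. In HRA cells BCL2L11, the proapoptotic BIM, averaged 1192 ± 111 against 916 ± 28.0 in parental cells (difference 0.38 ± 0.09, adjusted p = 0.0182). GSK3A and GSK3B, a pair of kinases that restrain beta-catenin, differed in sign in HRA cells, at 0.40 ± 0.10 (adjusted p = 0.0199) and -0.37 ± 0.10 (adjusted p = 0.0322). All 3 HRA calls were lost without HRA replicate 2 or 3, that of BCL2L11 also without parental replicate 2, that of GSK3A without parental replicate 3, and that of GSK3B without HRA replicate 1 or parental replicate 1 or 2.

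**Figure D3:**
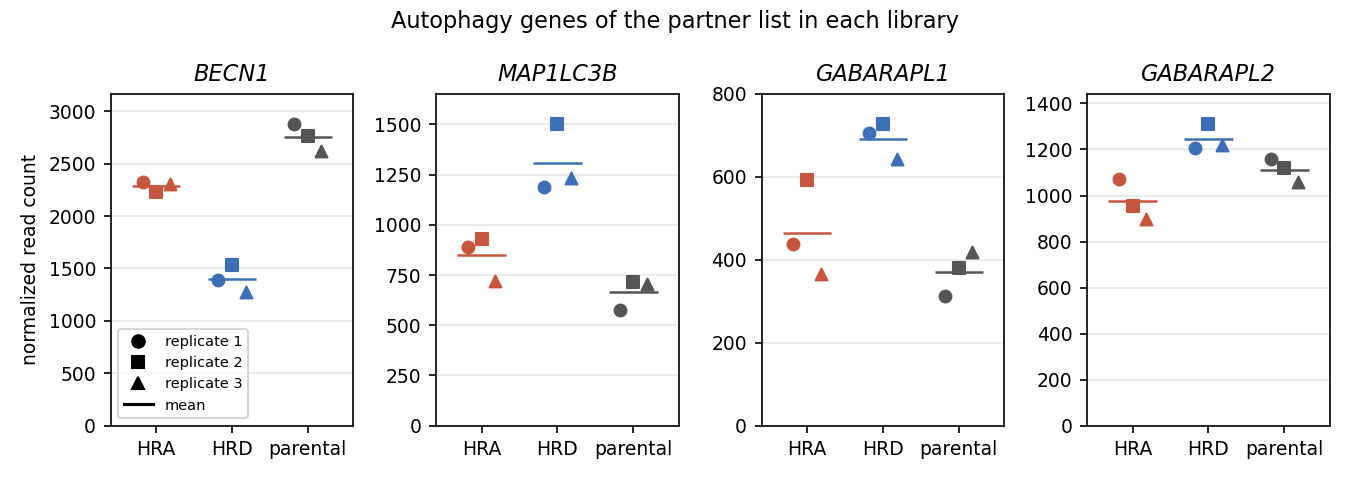
Normalized counts of BECN1, MAP1LC3B, GABARAPL1 and GABARAPL2 by library, with HRA, HRD and parental groups from left to right, a bar at each group mean and symbols for the replicate. HRD libraries stand highest for MAP1LC3B and GABARAPL1 and lowest for BECN1.

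Transcription factors of blood cells were read as a list of 28 genes, with 24 fitted. In HRA cells 5 were higher and 2 lower than in parental cells, beside 9.13% and 6.1% of all fitted genes, and the median was 0.17. In HRD cells 5 were higher and 2 lower, beside 10.7% and 12%, with a median of 0.00. The 5 include GATA1, which passed the filter only through its HRD libraries. ETS1, an ETS factor of lymphocytes, had 8891, 9602 and 6328 normalized counts in HRA, 3327, 3596 and 2314 in HRD and 3148, 4544 and 4117 in parental replicates. Every HRA library lay above the rest, and the difference was 1.07 ± 0.20 in HRA (adjusted p = 0.00467) and -0.36 in HRD (adjusted p = 0.214). RUNX3, a RUNX factor of T cells and NK cells, had 222, 298 and 195 in HRA, 545, 682 and 481 in HRD and 615, 575 and 534 in parental replicates, and fell by 1.29 on the log2 scale in HRA (adjusted p = 8.65e-04). So ETS1 and RUNX3 separated HRA from the other groups, in opposite directions, and neither followed the order of GIMAP4 and GIMAP6. Whether any of these factors acts on the GIMAP genes was not tested.

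IKZF2, the zinc finger factor Helios, averaged 1637 ± 199 in HRA, 867 ± 83.5 in HRD and 929 ± 110.4 in parental cells and rose by 0.82 ± 0.12 in HRA (adjusted p = 0.00154). IKZF3, or Aiolos, averaged 34.96 ± 9.90 in HRA, 37.8 ± 11.6 in HRD and 12.4 ± 4.16 in parental cells, a difference of 1.43 ± 0.34 in HRA (adjusted p = 0.0181) and 1.54 ± 0.34 in HRD (adjusted p = 0.00824). GATA1, the erythroid and megakaryocyte factor, had 63 reads in HRD and 3 in parental libraries, a depth-scaled ratio of HRD over parental reads of 19.0 (95% exact counting interval 6.20 to 94.4). GATA1 would not have passed the filter without its HRD libraries, so its call and this ratio are not read. GATA2 averaged 2668 ± 632 in HRD and 1499 ± 394 in parental cells (difference 0.84 ± 0.22, adjusted p = 0.0184), and RUNX1, named here after its values were seen, was at -0.35 ± 0.08 in HRD (adjusted p = 0.00717). The IKZF3 call in HRA was lost without HRA replicate 1 or 2 or parental replicate 1 or 3, and the GATA2 call without HRD replicate 2 or parental replicate 3. HES1, a target of NOTCH signalling, averaged 93.0 ± 17.7 in HRD and 34.5 ± 13.3 in parental cells (difference 1.47 ± 0.44, adjusted p = 0.0347). That call did not hold with no filter, nor without HRA replicate 1, any 1 HRD replicate or parental replicate 2 or 3. SPI1, the myeloid ETS factor PU.1, averaged 3766 ± 222 in HRA and 2666 ± 473 in parental cells (0.51, adjusted p = 0.0453). It missed the threshold with no filter, and without any 1 HRA replicate, HRD replicate 3 or parental replicate 2 or 3. Among ETS factors without a call against parental cells, FLI1 was at 0.29 in HRA (adjusted p = 0.0743, and 0.0421 with the replicate block) and -0.07 in HRD (adjusted p = 0.66), and ELF1 at -0.01 (adjusted p = 0.913) and -0.07 (adjusted p = 0.487). TAL1 had 4 reads in HRA, 0 in HRD and 1 in parental libraries, and GATA3 had 0, 0 and 2, too few to compare.

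A list of 14 other GTPases and effectors of immunity, which share no sequence cluster with the GIMAP genes, had 6 fitted members. In HRA cells 2 were higher and 0 lower than in parental cells, beside 9.13% and 6.1%, and in HRD cells 1 was higher and 0 lower, beside 10.7% and 12%. IRGQ, an immunity-related GTPase, averaged 920.04 ± 49.7 in HRA and 689 ± 58.2 in parental cells (0.42 ± 0.12, adjusted p = 0.0338). It missed the threshold without any 1 HRA replicate or parental replicate 1 or 3. GBP2, an interferon-induced guanylate-binding protein, averaged 748 ± 193 in HRA, 857 ± 203 in HRD and 369 ± 170.3 in parental cells (SD, n = 3 each), a difference of 1.12 ± 0.33 in HRA (adjusted p = 0.0425) and 1.31 ± 0.33 in HRD (adjusted p = 0.0148). The HRA call was lost by DESeq2, with no filter, in a fit of the compared groups alone, without any 1 of the HRA replicates, without HRD replicate 3 and without parental replicate 1 or 2, and the HRD call without HRD replicate 3. None of the 6 was called lower than in parental cells in either line, at an unadjusted p below 0.05, by edgeR or by DESeq2.

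Because GIMAP genes are read in T cells, markers of that lineage were set beside them. Of 20 T-cell markers 19 were analysed and 6 fitted, and their summed level was 733 to 875 normalized counts in HRA, 1078 to 1149 in HRD and 839 to 914 in parental libraries. Most of it was LEF1, a factor also active in myeloid cells, with 513 ± 20.8 in HRA, 824 ± 60.03 in HRD and 637 ± 51.1 in parental cells. Several genes of the T-cell receptor complex and its signalling were at or near 0, while others were read. CD3E had 1 read in HRA, 0 in HRD and 3 in parental libraries, CD3G had 1, 1 and 0, CD28 had 0, 1 and 0, and LCK had 1, 0 and 6. CD247, the zeta chain of the receptor, had 161 reads in HRA, 220 in HRD and 274 in parental libraries, or 54.0 ± 10.8, 61.3 ± 2.47 and 82.8 ± 9.02 normalized counts. Its differences from parental cells were -0.62 in HRA (adjusted p = 0.0653) and -0.42 in HRD (adjusted p = 0.171), with no overlap between either line and parental cells, and in HRA the replicate block gave adjusted p = 0.0368. LAT, an adaptor of the receptor, had 461, 517 and 365 reads. CD3D had 30, 4 and 25 reads and CD2 had 30, 5 and 31. Of the analysed genes, 2 had 0 reads in HRA, 4 in HRD and 6 in parental libraries. In HRA cells 0 were called higher and 0 lower by limma, beside 9.13% and 6.1%, with 0 and 2 at an unadjusted p below 0.05, 0 and 0 by edgeR, 0 and 1 by DESeq2 and 0 and 2 with the replicate block. In HRD cells 2 were higher and 0 lower, beside 10.7% and 12%, LEF1 (0.37 ± 0.10, adjusted p = 0.0225) and TRAT1 (2.92 ± 0.71). TRAT1 was at 23.2 ± 5.995 in HRD and 3.61 ± 4.45 in parental cells. It would not have passed the filter without its HRD libraries, so its call is not read. The LEF1 call was lost in a fit of the compared groups alone and without HRD replicate 1 or 3 or parental replicate 2 or 3.

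Markers of other lineages are read against the same shares of all fitted genes, 9.13% higher and 6.1% lower in HRA and 10.7% and 12% in HRD. The promyelocyte list, 13 of 14 fitted, was strong in all groups, with sums of 423224 to 453680 in HRA, 417194 to 507670 in HRD and 402836 to 437986 in parental libraries, most of them MPO and SRGN. Of the 13, 6 were higher and 2 lower in HRA and 4 higher and 2 lower in HRD than in parental cells. CTSG, a granule protease, averaged 4119.8 ± 299 in HRA, 6728 ± 282 in HRD and 10855 ± 1161 in parental cells, lower in HRA (-1.39, adjusted p = 2.31e-05) and in HRD (-0.69, adjusted p = 4.09e-04). LYZ, or lysozyme, averaged 6882 ± 380.4 in HRA, 11028 ± 435 in HRD and 3142 ± 313 in parental cells, higher in HRA (1.13, adjusted p = 3.46e-05) and in HRD (1.81, adjusted p = 1.22e-07).

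The sums of the remaining lineages each rest mainly on 1 or a few genes, with most other markers at or near 0, so they are levels of those genes and do not measure a lineage. NK-cell markers summed to 938 to 1334 in HRA, 561 to 851 in HRD and 417 to 513 in parental libraries, nearly all NKG7, a granule protein, with 1056 ± 218 in HRA, 638 ± 145 in HRD and 406 ± 57.0 in parental cells. NKG7 was higher in HRA (1.37, adjusted p = 8.86e-04) and in HRD (0.64, adjusted p = 0.0276, lost without HRD replicate 2 or 3 or parental replicate 1 or 3). EOMES, the other fitted NK gene, was lower in HRA (-0.99, adjusted p = 0.0242, lost with no filter and without any 1 HRA replicate or parental replicate 3).

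B-cell markers summed to 739 to 837 in HRA, 278 to 337 in HRD and 331 to 375 in parental libraries, mostly PAX5, the B-lineage factor, at 728 ± 34.8 in HRA, 282 ± 25.3 in HRD and 325 ± 22.4 in parental cells. PAX5 was higher in HRA (1.16, adjusted p = 1.38e-04), and CD79A, a chain of the B-cell receptor, was lower in HRD with 18 reads against 51 in parental libraries (-1.60, adjusted p = 0.0304). The CD79A call was lost with no filter, in a fit of the compared groups alone, and without HRA replicate 1, HRD replicate 2 or 3 or parental replicate 1 or 2. Endothelial markers summed to 211 to 309.8 in HRA, 235 to 273 in HRD and 68.7 to 141 in parental libraries, nearly all PECAM1 and ERG. PECAM1, an adhesion molecule and the 1 of the 2 that was called, averaged 204 ± 67.3 in HRA, 199 ± 36.9 in HRD and 42.7 ± 18.8 in parental cells. PECAM1 was higher in HRA (2.26, adjusted p = 8.65e-04) and in HRD (2.26, adjusted p = 3.77e-04).

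Monocyte markers summed to 579 to 1009 in HRA, 414 to 675 in HRD and 125 to 175 in parental libraries, with 4 of 10 fitted. FCGR1A, a receptor for antibodies, averaged 723 ± 227 in HRA, 227 ± 40.8 in HRD and 128 ± 21.6 in parental cells, higher in HRA (2.46, adjusted p = 8.26e-05) and in HRD (0.82, adjusted p = 0.0204, lost without HRD replicate 2 or parental replicate 1). S100A8 and S100A9, which encode calprotectin, had 194 and 657 reads in HRD and 4 and 42 in parental libraries. S100A9 was called higher in HRD (adjusted p = 1.28e-04). S100A8 would not have passed the filter without its HRD libraries, so its call is not read. The 1 gene lower in HRD, VCAN, had 4 reads there against 17 in parental libraries (adjusted p = 0.0429). It missed the threshold with DESeq2, a pseudocount of 5, no filter, the compared groups alone or the blocked fit, and without any 1 HRA replicate, HRD replicate 1 or 2 or parental replicate 1 or 2. The part of any lineage in the GIMAP values was not tested.

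**Figure D4:**
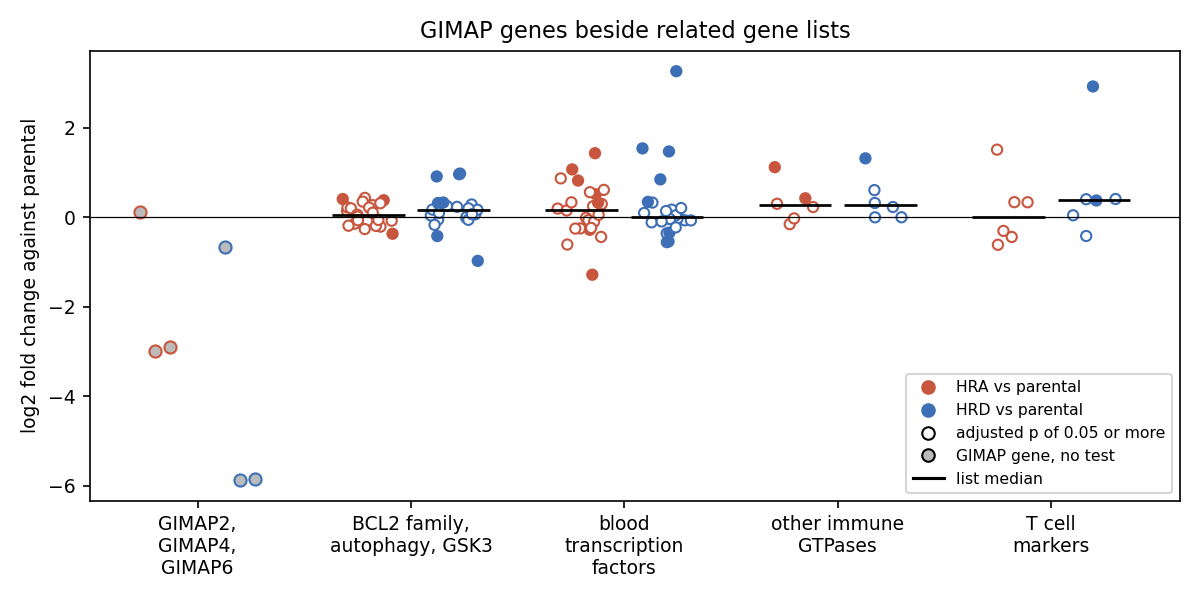
Difference from parental cells, as log2(value + 1), of each fitted gene of the partner, transcription factor, immune GTPase and T-cell lists, with HRA in red and HRD in blue side by side. Filled symbols passed the adjusted threshold, bars are list medians, and the 3 GIMAP members at the left are grey with no call drawn. GIMAP4 and GIMAP6 lie below every listed gene in both lines, and nothing is read from this, since the members were chosen for low values.

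Genes whose levels followed those of the family were sought by Pearson correlation of log2(value + 1) over the 9 libraries, among 12281 genes with a mean of at least 10. The libraries fall into 3 groups, so the r is given as a description of likeness. Nearest to the summed family were EVI2B at 0.983, MARS at 0.980, MPHOSPH9 at 0.976, ARHGAP5 at 0.975 and C17orf75 at 0.974. For GIMAP6 alone, a search added after its values were seen, they were MAP7 at 0.989, C17orf75 at 0.982, ALG1L2 at 0.981, UNK at 0.979 and ARHGAP5 at 0.978, while GIMAP4 and GIMAP6 correlated at 0.99 with each other and at 0.68 and 0.69 with GIMAP2. Of these genes EVI2B, C17orf75 and UNK are on chromosome 17, MPHOSPH9 on 12, ARHGAP5 on 14, MAP7 on 6 and ALG1L2 on 3.

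ARHGAP5, a GTPase-activating protein, averaged 718 ± 23.1 in HRA, 391 ± 49.5 in HRD and 1336 ± 223 in parental cells (SD, n = 3 each). Its groups did not overlap and held the order of GIMAP4 and GIMAP6, with a difference of -0.88 in HRA and -1.76 in HRD against parental cells. MAP7, a microtubule-binding protein, averaged 808 ± 44.3 in HRA, 514 ± 42.4 in HRD and 1184 ± 122 in parental cells, in the same order. Both genes were picked for their likeness over these same libraries, so the shared order follows from the choice. The fold differences of these genes were smaller than those of GIMAP4 and GIMAP6, and r compares the shape of a pattern over libraries and not its size.

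**Figure D5:**
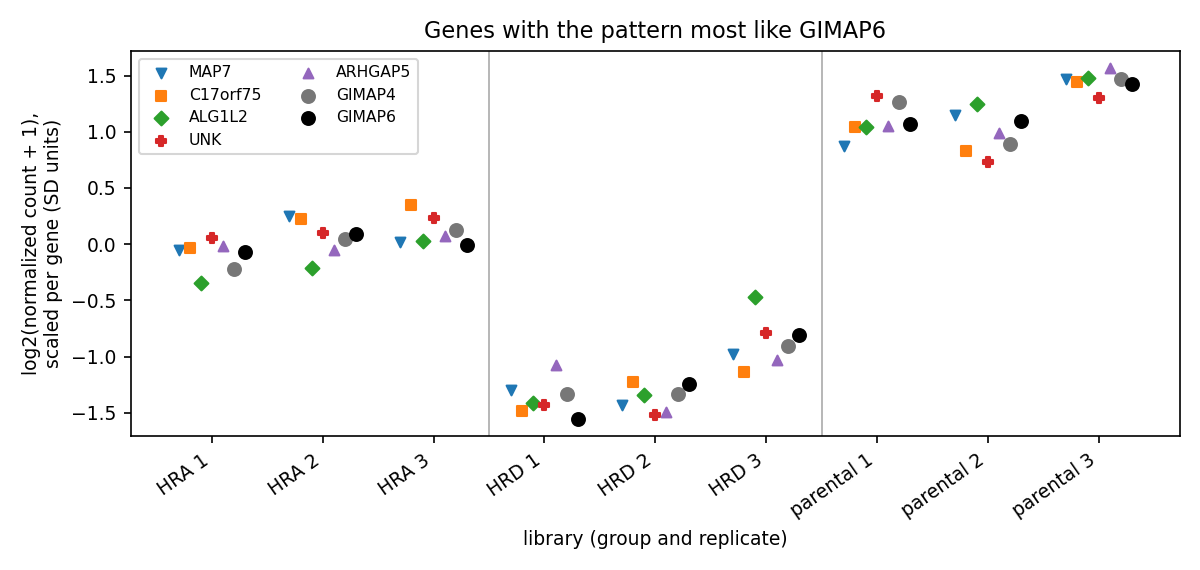
Levels by library of the 5 genes most like GIMAP6 and of GIMAP4 and GIMAP6, each as log2(value + 1) centred and scaled by its own SD, so the vertical axis is in SD units. In all 7 genes the HRD libraries lie lowest, the HRA libraries in the middle and the parental libraries highest, an order for which the 5 were picked.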

How the data were processed

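Only the processed table was analysed. Per the labels' protocols, RNA of parental, HRA and HRD cells was made into TruSeq stranded mRNA libraries. Tools named in the submitters' processing notes are HTSeq 0.11.1, Cufflinks 2.2.1, Picard, DESeq2, Bowtie2 2.3.5.1 and TopHat2 2.1.1, and the build is hg19. Their roles, the annotation and the strand setting are not given in the sources used here.

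The authors deposited, as signal, each gene's reads scaled by 1 size factor per library. All values (100%) were whole multiples of 1 constant per library within 0.001, so whole reads were recovered, and edgeR 4.0.16 called 1924, 2852 and 3800 genes on them for HRA against parental, HRD against parental and HRD against HRA cells. The main test was limma 3.58.1 (R 4.3.3) on log2(value + 1) with a variance trend and all 9 libraries, for genes at 10 or more in at least 3 libraries (99.97% of reads), with Benjamini-Hochberg adjustment over all 12569 genes. Fold changes on this scale understate those of low genes. Errors are the SD of 3 replicates, or the SE of the fit beside a log2 difference. The method was tested on simulated data, with changes placed only in well-read genes of HRA libraries and with no pairing of replicates. That test does not cover genes near 0.

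Members, lists and motifs were chosen with earlier results of these data known. Named genes were drawn from the members, called neighbours, up to 4 called genes of each list and comparison, and the 5 genes most like the family, with further genes named for their role or after their values were seen (such as BAX, MCL1, SPI1, ELF1, TAL1 and CD247). Genes were placed by the RefSeq table of GRCh38.p14, exon lengths came from GENCODE v29, and promoters came from RefSeq. Same-numbered HRA and parental libraries deviated together (r = 0.22, 0.38 and 0.14), which is taken as pairing. Those of HRD and parental libraries did not in every pair (-0.08, 0.26 and 0.29), nor did those of HRD and HRA libraries (-0.03, 0.41 and 0.23). The main fit left pairing out. With the replicate block 2774 genes were called for HRA against parental, 3639 for HRD against parental and 4673 for HRD against HRA cells. Alternatives were another pseudocount, filter, scaling (TMM), set of groups or window, DESeq2 1.42.0, a replicate block, and each library left out.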

Additional observations from a re-analysis of the deposited data

Results flagged for a closer look

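CEBPA, the transcription factor that drives granulocyte differentiation and a gene of the promyelocyte list, stood out because it was above parental cells in HRA and below them in HRD cells, and the lines differed from each other. It averaged 9056 ± 1363 normalized counts in HRA, 4365 ± 675 in HRD and 5801 ± 251 in parental cells (SD, n = 3 each), with a log2 difference of 0.63 ± 0.12 in HRA against parental cells (limma adjusted p = 0.00662) and -0.42 ± 0.12 in HRD against parental cells (adjusted p = 0.0314). The HRD difference missed the threshold without HRD replicate 1 or 2 and without any 1 parental replicate. The difference between the lines themselves was -1.05 in HRD against HRA cells (adjusted p = 1.53e-04).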

How the results depend on the processing

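No result changed sign past the threshold under any alternative run. For HRA against parental cells the replicate block raised the genes called lower to 1202 (from 767), and leaving out 1 library gave 575 to 1352 higher, 328 to 965 lower and 0 to 6 neighbours higher. The last was 0 without HRA replicate 2. For HRD against parental cells leaving out 1 library gave 898 to 1335 genes higher, 1136 to 1564 lower and 0 to 2 neighbours higher. For HRD against HRA cells it gave 1049 to 1848 higher and 1342 to 2085 lower. Fewer samples enter these fits. The neighbours called higher in HRD against parental cells numbered 0 with no filter, 0 by DESeq2, 0 with only the compared groups fitted, and 3 in windows of 25 genes. Windows of 10 gave 2 higher in HRA and 1 lower in HRD against HRA cells, and windows of 25 gave 1 higher in HRD against HRA cells. Without GIMAP2 the log2 ratios of the summed family were -3.08, -6.63 and -3.55. The cause of these shifts was not tested. The log2 difference of GIMAP4 ranged from -3.38 to -2.56 in HRA and from -7.91 to -3.89 in HRD against parental cells, and that of GIMAP6 from -3.06 to -2.62 and from -6.53 to -4.53. GIMAP4 was not fitted with the filter of 50. In HRA against parental cells the replicate block added calls for ZNF783 (adjusted p = 0.0347), BECN1 (0.0372), GATA2 (0.00767), LEF1 (0.0457), FLI1 (0.0421), CD247 (0.0368), EVI2B (0.0246) and UNK (0.0437), and in HRD against HRA cells for MARS (0.0418). For BECN1, LEF1 and MARS another alternative gave a call as well. GIMAP4 in HRD cells rests on 1 read and GIMAP8 on 5 reads in all, so depth limits both.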

Other observations

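The genes most like GIMAP2 were others than those most like GIMAP6. Over the 9 libraries its highest r was 0.982 with LOC100506606, followed by CCDC77 at 0.958, FRS2 at 0.956, ZNF419 at 0.954 and NECTIN3 at 0.954. Counts of a pair of T-cell markers with few reads, picked after their values were seen, were lowest in HRD cells when summed over its libraries. The pair does not stand for its list. Of the 6 fitted T-cell markers, 5 had estimates above 0 in HRD against parental cells, with a median of 0.39. CD3D, a chain of the T-cell receptor complex, had 5.58, 27.1 and 2.44 normalized counts in HRA, 0.992, 3.01 and 0 in HRD and 6.17, 9.82 and 8.99 in parental replicates, so HRA replicate 2 carries the HRA mean and the HRA and HRD libraries overlap. CD2, an adhesion receptor, had 30 reads in HRA, 5 in HRD and 31 in parental libraries.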
